A study of Homo sapiens with 12 samples.

Results

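The 41 genes described here encode integrins and proteins of focal adhesions, and they were taken by symbol from a list. All 41 matched a single row among the 57820 genes of the count tables. They comprise the 4 tensins (TNS1 to TNS4), 8 alpha and 6 beta integrin subunits, talins and kindlins, the ILK, PINCH and parvin complex, kinases and docking proteins, actin linkers, the zyxin family and caveolin-1. RNA came from T47D-MTVL cells, a line derived from the hormone-responsive breast cancer line T47D, in 12 libraries that form 6 groups of 2. Poly(A) RNA was sequenced after a control siRNA (siCtrl), after an siRNA against PADI2 (siPADI2), and in cells labelled as expressing RNA polymerase II (RNAP2) that resists alpha-amanitin, either wild type (WT) or R1810A. Both RNAP2 groups had 24 hours of expression and 12 hours in 6 µg/ml of the toxin, which blocks the cells' own polymerase. Chromatin-associated RNA was sequenced after siCtrl and after siPADI2. PADI2 is an enzyme that turns arginine into citrulline, and R1810A removes an arginine of the polymerase's C-terminal domain. All cells grew in medium with charcoal-treated serum, without added progestin, and all belong to the same line.

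Integrins are receptors made of an alpha and a beta subunit that bind matrix proteins such as fibronectin, laminin and collagen outside the cell. Talins and kindlins bind the beta tails and switch integrins to the active state, after which vinculin, alpha-actinin, filamin and tensins tie the receptors to actin, and FAK, SRC, paxillin and p130Cas pass signals on. Tensins are found mostly in mature adhesions, and TNS4 (also called CTEN) lacks the actin-binding region of the other tensins and is expressed mainly in epithelia.

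Poly(A) libraries totalled 44.32 to 132.76 in units of 1e6 counts, and chromatin libraries 2.72 to 7.04, the siPADI2 pair being the shallower. Levels are counts per 1e6 after TMM scaling (CPM). Luminal markers were abundant in poly(A) RNA, with KRT8 between 1371 and 2597 CPM, whereas the basal keratin KRT5 and the immune marker PTPRC did not exceed 0.0154 and 0.0401 CPM. Of 12 markers of other cell types, 4 had enough reads to be tested in poly(A) RNA, namely COL1A1 (43.1 to 72.8 CPM), VIM (3.19 to 9.73 CPM), TP63 (0.307 to 1.60 CPM) and CDH2 (0.212 to 1.26 CPM). After siPADI2, VIM, TP63 and CDH2 fell, and in the libraries labelled R1810A CDH2 fell. Of 9 luminal markers, 6 fell and 1 rose after siPADI2 in poly(A) RNA, where 27.9% of all genes fell. Against WT, the libraries labelled R1810A had 6 luminal markers lower and 2 higher, with 24.3% of all genes lower. Their part in the changes below was not tested. PADI2 fell by 3.65 on the log2 scale after siPADI2 in poly(A) RNA. It was lower by a similar amount in the libraries labelled R1810A (log2 change −4.18), whose label names no PADI2 siRNA, so that label is used with this doubt.

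TNS4 was the member with the largest change in poly(A) RNA. It encodes an epithelial tensin and lies on hg19 chromosome 17 from 38632080 to 38657849, minus strand (ENSG00000131746.8). The siCtrl libraries held 34.4 and 32.1 CPM and the siPADI2 libraries 0.640 and 0.745 CPM. The WT libraries held 21.2 and 20.1 CPM and the libraries labelled R1810A 2.11 and 1.91 CPM. Thus both control groups were high, and no library of the other groups came near them. The fall was 47.7-fold after siPADI2 (log2 change −5.58 with a standard error of 0.137, and by the edgeR quasi-likelihood test a Benjamini-Hochberg adjusted p = 8.24e-30) and 10.3-fold in the libraries labelled R1810A (−3.36, standard error 0.0922, adjusted p = 7.19e-11). The siPADI2 values still rest on 76 and 102 counts. In bulk RNA such as this, fewer cells expressing a gene and less of its RNA per cell cannot be told apart. The difference of 2.24 between the 2 effects passed its own test (standard error 0.15, adjusted p = 2.32e-07), with the smaller fall in the libraries labelled R1810A.

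The other tensins moved less, and not all in the same direction. TNS2 (ENSG00000111077.13, chromosome 12 from 53440753 to 53458156), a tensin with a phosphatase-like domain, stood at 115 and 110.1 CPM after siCtrl and at 52.1 and 44.7 CPM after siPADI2 (log2 change −1.22, standard error 0.0868, adjusted p = 3.17e-15). In the RNAP2 groups TNS2 was 99.4 and 86.1 CPM for WT and 71.2 and 59.8 CPM for the libraries labelled R1810A (−0.50, standard error 0.114, adjusted p = 0.0184). The groups did not overlap in either comparison, but the latter call was lost without WT replicate 2 (adjusted p = 0.137). TNS2 fell further after siPADI2, with a difference of 0.75 between effects (adjusted p = 0.00647).

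TNS3 (ENSG00000136205.12, chromosome 7 from 47314752 to 47622156), the tensin linked to cell motility, showed the reverse order. It went from 84.1 and 75.0 CPM to 63.5 and 56.1 CPM after siPADI2 (log2 change −0.41, adjusted p = 0.000115), and from 185 and 203 CPM to 98.8 and 106 CPM in the libraries labelled R1810A (−0.92, adjusted p = 1.82e-07). The difference between the effects was −0.49 (adjusted p = 0.00707). TNS1 (ENSG00000079308.12, chromosome 2 from 218664512 to 218867718), the tensin best known from fibroblast and muscle adhesions, was scarce in poly(A) RNA. Its 8 poly(A) values lay between 4.18 and 5.59 CPM and passed neither test (0.27, adjusted p = 0.085 after siPADI2, and 0.10, adjusted p = 0.484). The siPADI2 value of TNS1 did pass, as higher, under 2 alternatives, GC correction and total counts as library sizes. The latter gave 0.45 and raised the median of all genes by 0.183.

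Per kilobase of exon, which allows levels of different genes to be compared, TNS2 was the highest tensin after siCtrl (13.9 ± 0.465 CPM per kb, SD, n = 2), followed by TNS4 (6.86) and TNS3 (6.74), which did not differ beyond their spread, and TNS1 (0.287). After siPADI2 the order was TNS2 (5.98), TNS3 (5.07), TNS1 (0.342) and TNS4 (0.143). Thus TNS4 moved from among the upper tensins to the last place. In the WT libraries TNS3 led with 16.5 CPM per kb, ahead of TNS2 with 11.46.

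**Figure D1:**
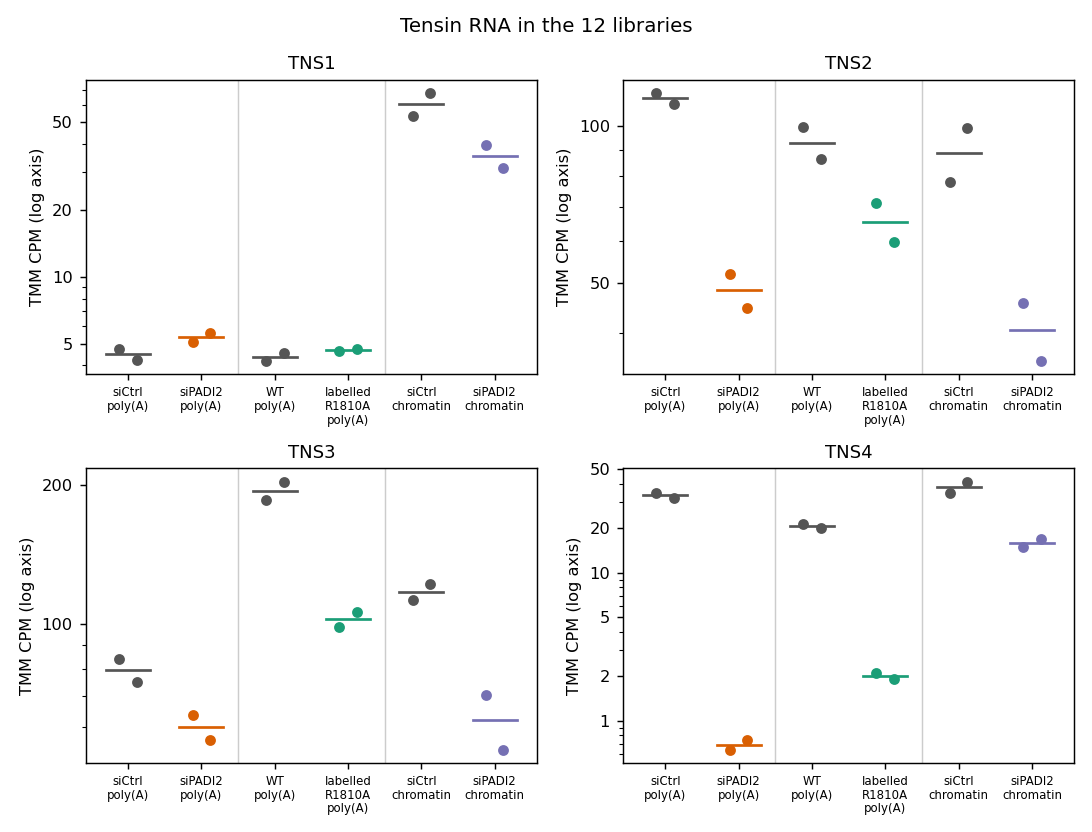
Tensin RNA by library, in TMM-scaled CPM on log axes whose ranges differ between genes. Points are the 2 libraries of a group, short lines their mean, and vertical lines separate the 3 comparisons. TNS4 dropped from 34.4 and 32.1 CPM to 0.640 and 0.745 CPM after siPADI2 in poly(A) RNA, whereas TNS1 stayed between 4.18 and 5.59 CPM in poly(A) RNA.

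Over the whole set, 38 of the 41 genes had enough reads for the poly(A) test of siPADI2. ITGB3, LIMS2 and CAV1 did not. The count was 14 higher and 15 lower at an adjusted p under 0.05, while 9 were not called. Over all 18720 genes tested, 56.7% were called, 28.8% higher and 27.9% lower, so the members' split is close to the background. The median log2 fold change was 0.02 over the 38 genes and 0.005 over all genes. A change of at least 1.5-fold was called for 17 members (7 higher, 10 lower), against 31.9% of all genes. Without siPADI2 replicate 1, 8 members in place of 14 were called higher.

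In the libraries labelled R1810A against WT, 39 genes were tested (not ITGB3 and CAV1), of which 13 were higher, 13 lower and 13 not called. The background here was 46.9% of 19202 genes, 22.6% higher and 24.3% lower, and 21% past 1.5-fold, which 12 members passed (6 in each direction). The medians were 0.03 over the members and −0.02 over all genes. Without R1810A replicate 2, 8 members in place of 13 were called higher. The medians lay near 0, and the direction of the calls differed between roles, as the plot of effects by gene shows.

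**Figure D2:**
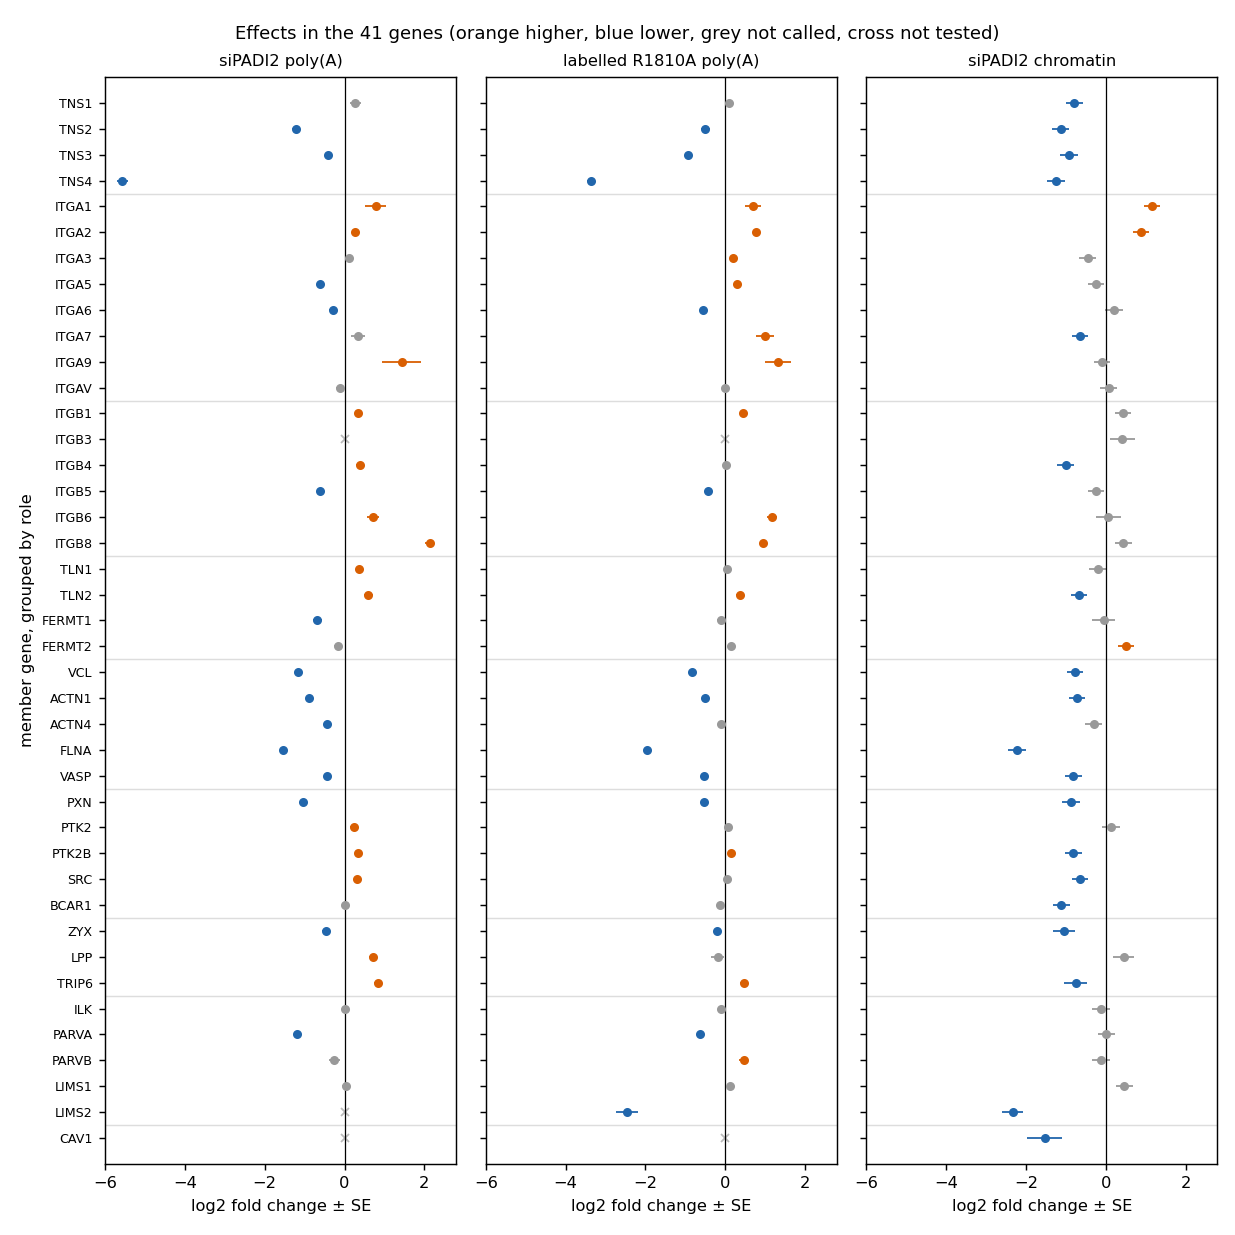
Log2 fold changes with standard errors for the 41 genes in the 3 comparisons, grouped by role from tensins at the top to caveolin-1 at the bottom, on the same axis. Orange marks genes called higher, blue lower and grey not called, and a cross at 0 marks a gene that was not tested. The 5 actin linkers (VCL, ACTN1, ACTN4, FLNA, VASP) all lie left of 0 in the 3 panels, and TNS4 has the largest fall in both poly(A) panels.

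Among the actin linkers (VCL, ACTN1, ACTN4, FLNA and VASP), all 5 were called lower after siPADI2 in poly(A) RNA, where 27.9% of all genes were. In the libraries labelled R1810A 4 of 5 were lower, against 24.3% of all genes, and ACTN4 was not called (−0.10, adjusted p = 0.286), though it was without R1810A replicate 2 (−0.20). FLNA (ENSG00000196924.10, chromosome X from 153576892 to 153603006), which encodes the actin cross-linker filamin A that binds beta integrin tails, fell most. FLNA was 71.2 and 61.0 CPM with the control siRNA but 23.6 and 22.0 CPM after siPADI2 (log2 change −1.53, standard error 0.0935, adjusted p = 3.14e-17). It was 169 and 180.1 CPM in the WT libraries and 42.7 and 47.3 CPM in those labelled R1810A (−1.95, standard error 0.0688, adjusted p = 3.76e-10). The groups lie far apart in both comparisons. FLNA fell more in the libraries labelled R1810A (difference −0.40, adjusted p = 0.0215), but that difference lost its call when any of 4 of the 8 libraries was left out, namely siCtrl replicate 2, siPADI2 replicate 1, WT replicate 2 or R1810A replicate 1.

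VCL (ENSG00000035403.12, chromosome 10 from 75757872 to 75879918) encodes vinculin, which binds talin under tension and recruits actin. It went from 215 and 207 CPM to 94.6 and 94.2 CPM after siPADI2 (−1.16, standard error 0.0826, adjusted p = 3.35e-15), and from 229 and 244 CPM to 127 and 138 CPM in the libraries labelled R1810A (−0.83, standard error 0.067, adjusted p = 4.18e-07). Thus vinculin RNA was lower in each such library than in any control library of its comparison. ACTN1, the non-muscle alpha-actinin 1 that cross-links actin at adhesions, stood at 184 and 158 CPM with the control siRNA but 96.1 and 88.5 CPM after siPADI2 (−0.89, adjusted p = 2.22e-11). The WT libraries held 144 and 150 CPM of ACTN1 and those labelled R1810A 98.2 and 109 CPM (−0.50, adjusted p = 3.07e-05). ACTN4, its paralog, and VASP, which promotes actin filament growth, changed by −0.43 and −0.44 after siPADI2, both under 1.5-fold.

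PXN and PARVA were also lower in both. PXN (paxillin, a docking protein for FAK and vinculin) fell from 462 and 412 CPM to 215 and 212 CPM after siPADI2 (−1.03, standard error 0.0862, adjusted p = 3.24e-13). In the libraries labelled R1810A it was 295 and 294 CPM against 430.0 and 422 CPM in WT (−0.53, adjusted p = 2.02e-05). PARVA (alpha-parvin, which joins ILK to actin) fell from 75.3 and 75.7 CPM to 33.5 and 32.6 CPM (−1.19, standard error 0.0854, adjusted p = 3.94e-15), and by 0.63 on the log2 scale in the libraries labelled R1810A (adjusted p = 2.03e-06). Both were lower by more after siPADI2, with differences of 0.53 for PXN (adjusted p = 0.0013) and 0.59 for PARVA (adjusted p = 0.000237).

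The other members of the complex of PARVA differed among themselves. ILK, the pseudokinase at the centre of that complex, had 105.5, 111.5, 117 and 104 CPM in the 4 siRNA poly(A) libraries, with overlapping groups (0.02, adjusted p = 0.822). LIMS1 (PINCH-1) was not called in either poly(A) comparison (0.04 and 0.11). Near-identical LIMS copies exist and multi-mapping reads were not counted, so its level is uncertain. LIMS2 (PINCH-2) was near the lowest level that could be tested. It had 0.842 and 0.760 CPM in the WT libraries and 0.176 and 0.115 CPM in those labelled R1810A (−2.45, standard error 0.278, adjusted p = 9.64e-06), which rest on 105 and 98 against 22 and 15 counts. PARVB, the beta-parvin, was not called after siPADI2 (−0.25) and was higher in the libraries labelled R1810A (0.46, adjusted p = 0.00463), a call that was lost without R1810A replicate 2.

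**Figure D3:**
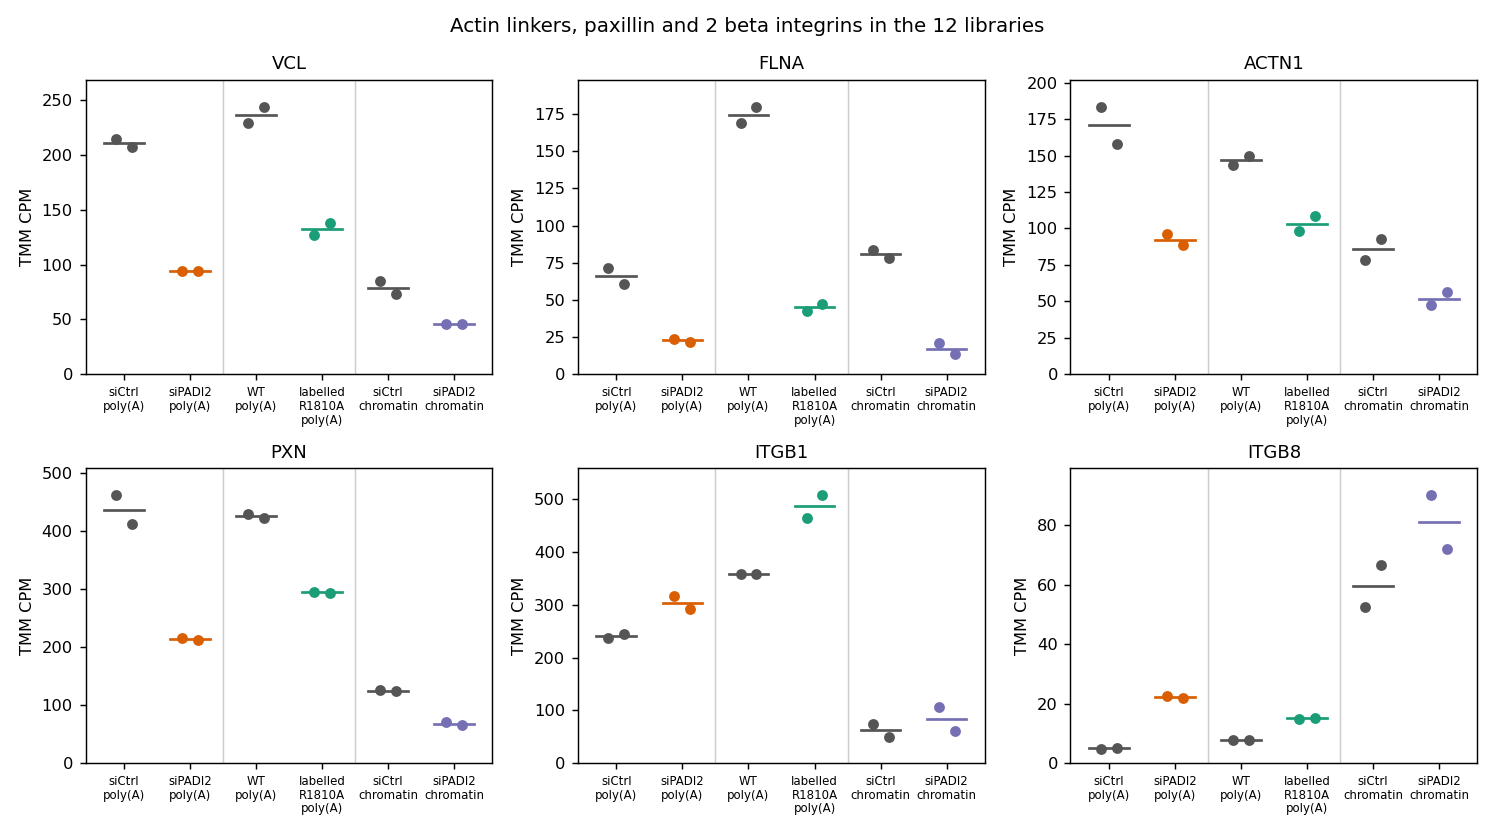
CPM of 3 actin linkers (VCL, FLNA, ACTN1), paxillin (PXN) and the beta integrins ITGB1 and ITGB8 in the 12 libraries, on linear axes from 0. Points are libraries and short lines the mean of 2, and vertical lines separate the comparisons. The linkers and PXN were lower than their controls in each comparison, while ITGB8 rose from 4.89 and 5.14 CPM to 22.5 and 22.0 CPM after siPADI2 in poly(A) RNA.

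Of the 5 beta integrins tested in poly(A) RNA, 4 rose after siPADI2 and ITGB5 fell, where 28.8% of all genes rose. The rise of ITGB4 (0.38) lost its call without siPADI2 replicate 1. In chromatin RNA none of 6 was called higher, and ITGB4 was lower. For the libraries labelled R1810A against WT 3 rose and 1 fell, where 22.6% of all genes rose and 24.3% fell, and ITGB4 was not called. ITGB8 (ENSG00000105855.5, chromosome 7 from 20370325 to 20455377) pairs with alpha-v and activates latent TGF-beta. It rose from 4.89 and 5.14 CPM to 22.5 and 22.0 CPM after siPADI2 (log2 change 2.14, standard error 0.113, adjusted p = 3.65e-19), and from 7.69 and 7.88 CPM to 14.9 and 15.2 CPM in the libraries labelled R1810A (0.95, standard error 0.0773, adjusted p = 4.71e-07). The rise was larger after siPADI2 (difference −1.17, adjusted p = 7.24e-06).

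ITGB6, the other alpha-v partner that activates TGF-beta and a subunit typical of epithelia, was low. It rose from 2.69 and 2.75 CPM to 4.03 and 4.91 CPM after siPADI2 (0.72, adjusted p = 8.03e-05), and from 2.58 and 2.57 CPM to 5.40 and 6.23 CPM in the libraries labelled R1810A (1.17, standard error 0.115, adjusted p = 2.71e-06). ITGB5, which forms the vitronectin receptor with alpha-v, was the beta subunit that fell, from 111 and 108 CPM to 73.67 and 69.97 CPM after siPADI2 (−0.60, adjusted p = 5.17e-08) and by 0.44 on the log2 scale in the libraries labelled R1810A. ITGB1, the shared partner of most alpha subunits here, rose modestly, from 238 and 244 CPM to 317 and 292 CPM (0.34, adjusted p = 0.000764), and from 358 and 359 CPM to 465 and 508 CPM (0.44, adjusted p = 0.000216). So the subunits that share alpha-v changed in both directions, while ITGAV itself was not called (−0.12 and −0.01). For ITGB3, 56.7% of the exonic bases are shared with another gene on the same strand, and such reads were not counted. It is listed at 0 in 7 of the 8 poly(A) libraries.

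Among the 8 alpha subunits, siPADI2 raised 3 and lowered 2, where 28.8% of all genes rose and 27.9% fell. Against WT the libraries labelled R1810A had 6 raised and 1 lowered, where 22.6% of all genes were higher and 24.3% lower. DESeq2 called 1 and 3 of them higher. Without siPADI2 replicate 1 none of the 8 was called higher after siPADI2, and without WT replicate 2 or R1810A replicate 2 4 were in the libraries labelled R1810A. The collagen-binding subunit ITGA2 rose in both, from 79.8 and 79.1 CPM to 98.6 and 92.6 CPM (0.27, adjusted p = 0.00539) and from 65.3 and 71.1 CPM to 111 and 122 CPM (0.77, standard error 0.068, adjusted p = 1.34e-06). Its rise was larger in the libraries labelled R1810A (difference 0.53, adjusted p = 0.00131). The smaller rise of ITGA2 lost its call without siPADI2 replicate 1.

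ITGA5, the fibronectin receptor subunit, was the only member called in opposite directions in the 2 poly(A) comparisons. It went from 64.9 and 62.9 CPM to 42.4 and 41.3 CPM after siPADI2 (−0.61, standard error 0.085, adjusted p = 8.88e-08), and from 52.1 and 52.0 CPM to 62.0 and 65.5 CPM in the libraries labelled R1810A (0.29, standard error 0.0584, adjusted p = 0.00105). The difference of 0.93 between these effects passed its own test (standard error 0.0869, adjusted p = 3.76e-06). The laminin receptor subunit ITGA6 fell in both (−0.28 and −0.55), and the former call was lost without siCtrl replicate 2, siPADI2 replicate 1 or siPADI2 replicate 2 (adjusted p from 0.0576 to 0.122). The laminin-binding ITGA7 rose from 3.51 and 2.73 CPM in the WT libraries to 7.28 and 5.12 CPM in those labelled R1810A (0.99, standard error 0.229, adjusted p = 0.0245), a call that was lost without WT replicate 2.

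The rises of ITGA1 and ITGA9 rest on little RNA. ITGA1, a collagen receptor subunit, had 0.456 and 0.459 CPM after siCtrl, 0.884 and 0.694 CPM after siPADI2, 0.625 and 0.543 CPM in WT and 0.938 and 0.968 CPM in the libraries labelled R1810A (0.78, adjusted p = 0.0126, and 0.71, adjusted p = 0.0097). The former call was lost without either siCtrl replicate 2 or siPADI2 replicate 1, the latter without WT replicate 2 or R1810A replicate 2. ITGA9, a receptor subunit for tenascin and osteopontin, did not exceed 0.345 CPM in poly(A) RNA (1.43, adjusted p = 0.0117, and 1.32, adjusted p = 0.00429). Its siCtrl values rest on 1 and 13 counts, so those libraries alone would not have passed the filter on low counts, and a gene that passed through its high group had to differ. The siPADI2 call was lost without siCtrl replicate 1 or siPADI2 replicate 1.

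Among talins, kindlins and kinases, most calls in poly(A) RNA were under 1.5-fold. TLN1, the main talin, rose by 0.37 on the log2 scale after siPADI2 and was not called in the libraries labelled R1810A (0.06). TLN2, the less abundant talin, rose from 9.91 and 8.58 CPM to 14.1 and 13.6 CPM after siPADI2 (0.59, adjusted p = 2.14e-05). Of the kinases, PTK2 (FAK), PTK2B (PYK2) and SRC rose by 0.23, 0.35 and 0.32 on the log2 scale after siPADI2, each under 1.5-fold. The call of PTK2 was lost without siCtrl replicate 1, siPADI2 replicate 1 or siPADI2 replicate 2, and that of PTK2B without siPADI2 replicate 1. The kindlin of epithelia, FERMT1, fell from 10.99 and 10.96 CPM to 6.46 and 7.26 CPM after siPADI2 (−0.68, adjusted p = 4.07e-06) and was not called in the libraries labelled R1810A (−0.11). That difference of 0.59 passed its test (adjusted p = 0.00441).

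The 3 zyxin family members, LIM proteins that shuttle between adhesions and nucleus, split. ZYX itself was lower after siPADI2 (−0.47, adjusted p = 2e-05). TRIP6 rose from 10.7 and 10.5 CPM to 19.9 and 17.9 CPM (0.84, adjusted p = 1.35e-08) and by 0.47 on the log2 scale in the libraries labelled R1810A. LPP rose from 46.3 and 44.7 CPM to 65.4 and 83.0 CPM (0.71, adjusted p = 2.13e-07) but was not called in the libraries labelled R1810A (−0.18, adjusted p = 0.45). CAV1, the caveolae protein, was listed at no more than 0.0775 CPM in any poly(A) library, so it was not tested there.

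By level per kilobase, the most abundant members after siCtrl were ACTN4 (78.9 ± 6.05 CPM per kb, SD, n = 2), PXN (58.6 ± 4.76), ITGB1 (39.3 ± 0.696), VCL (36.2 ± 0.938) and ILK (31.3 ± 1.22). ILK and the next, ITGB4 (29.8 ± 3.02), did not differ beyond their spread. After siPADI2 the order was ACTN4 (58.5), ITGB1 (49.7), ITGB4 (38.7), ILK (31.9) and PXN (28.7), while VCL dropped from rank 4 to rank 10. In the libraries labelled R1810A, ITGB1 led with 79.4 CPM per kb and VCL took rank 7. Thus VCL moved down the order in both comparisons, and ITGB1 moved up after siPADI2.

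The 2 poly(A) comparisons share no library, but PADI2 RNA was lower in both, and its part in shared calls was not tested. In both, 38 members were tested. Of these, 12 (31.6%) were called lower in both, against 16.2% of the 18260 genes tested in both. They were TNS2, TNS3, TNS4, FLNA, VCL, ACTN1, VASP, PXN, PARVA, ZYX, ITGA6 and ITGB5. Of these 12, ZYX lost its R1810A call without WT replicate 1 (−0.20), and the losses of TNS2 and ITGA6 are given above. The others kept both calls when any library was left out. With DESeq2, total counts as library sizes or the joint fit, no zyxin family gene was called lower in the libraries labelled R1810A. Another 9 (23.7%, against 15.2% of all genes) were higher in both, namely ITGB1, ITGB6, ITGB8, ITGA1, ITGA2, ITGA9, TLN2, PTK2B and TRIP6. ITGA9 passed the low-count filter of the siPADI2 comparison only through its high group, so its call gives no support to this share. Of these 9, ITGB1, ITGB6, ITGB8 and TRIP6 kept both calls when any library was left out. PTK2B lost its R1810A call without any of the 4 libraries and TLN2 without WT replicate 1 or R1810A replicate 2, and the losses of ITGA1, ITGA2 and ITGA9 are given above. Opposite calls were made for ITGA5 alone (2.63%, against 3.05%), and 6 (15.8%, against 29.4%) were called in neither. The difference between the effects was tested for 39 members. It was called for 16, with 12 above 0 and 4 below. Over 19884 genes 26.1% were called, 14.3% above and 11.8% below 0, and 13.5% past 1.5-fold, which 8 members passed. LPP had the least stable of these 8 differences (−0.86, adjusted p = 0.0337), which lost its call without any of 5 libraries, namely both siCtrl libraries, siPADI2 replicate 2 and both libraries labelled R1810A.

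**Figure D4:**
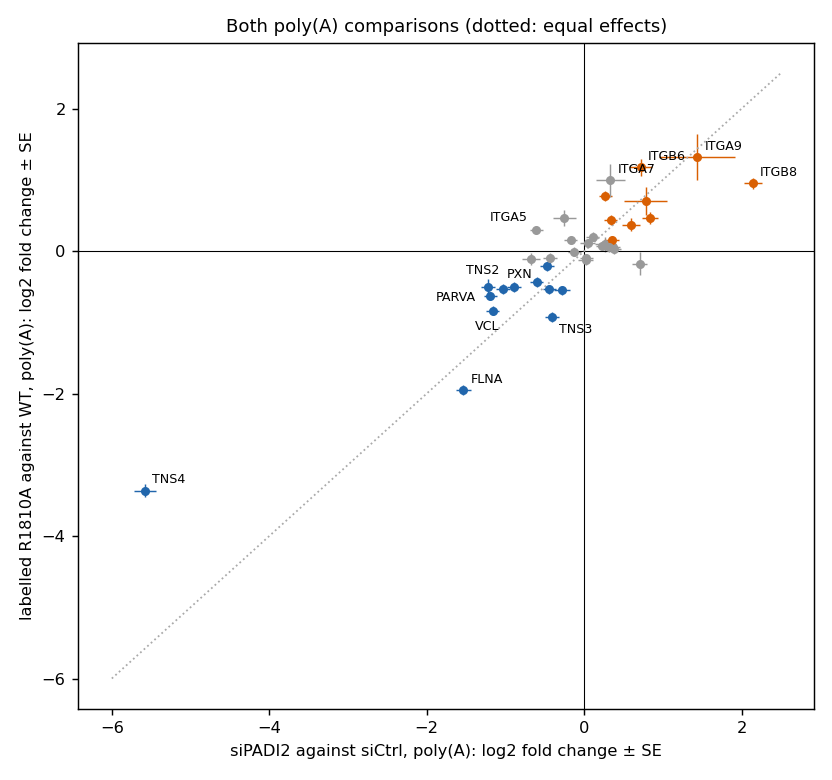
Log2 fold changes with standard errors in the 2 poly(A) comparisons for the 38 members tested in both, siPADI2 on the horizontal and the libraries labelled R1810A on the vertical axis. Blue genes were called lower in both (12), orange higher in both (9), grey all others, and the dotted line marks equal effects. TNS4 lies farthest out at −5.58 and −3.36, and ITGA5 lies left of 0 but above 0 on the vertical axis.

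Because the actin linkers were lower, promoters were searched for the CArG box, the element bound by serum response factor, which is known to drive many actin cytoskeleton genes. The motif was chosen with the results known. RefSeq promoter windows (GRCh38.p14, 250 bases before to 50 after a transcript start) were at hand for 30 of the 41 members. The table gave none for TNS4. A box on either strand was present in 4 of the 30 genes (13.3%), against 1.6% of all genes. By window it was present in 4 of the members' 67 (5.97%) and in 1.29% of all 35116. These shares were not tested. The matches, with 10 bases on each side and the box in capitals, show that both falling and rising members carry one.
FLNA (chrX:154374709-154374738, minus strand, box starting 94 bases before the start): ggcaattttaCCAATTAAGGctttctcgcc
ACTN1 (chr14:68977718-68977747, minus strand, 171 bases before the start): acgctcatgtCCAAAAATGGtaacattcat
LPP (chr3:188212519-188212548, plus strand, 183 bases before the start): gcctgcttctCCATATTTGGaaatgtttac
ITGB6 (chr2:160200313-160200342, minus strand, 60 bases before the start): cacctgccttCCTTATAAGGagaacaagga
FLNA and ACTN1 fell in both poly(A) comparisons, ITGB6 rose in both, and LPP was called higher after siPADI2 and was not called in the libraries labelled R1810A. A match is a description of these letters and says nothing about binding.

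In chromatin-associated RNA all 41 members could be tested after siPADI2. Of these, 19 were lower, 3 higher and 19 not called, against a background of 32.4% of 33879 genes (12.2% higher, 20.1% lower, and 30.8% past 1.5-fold, which 21 members passed). The median was −0.30 over the members and 0.03 over all genes. The change tracked GC content across all genes. The median change was 0.47 for genes in the lowest GC 10th and −1.05 for those in the highest. The members called lower had a median GC content of 59.4%, those called higher 38.8% and those not called 48.5%. Over all 33879 genes, a correction for GC content left 2876 called lower and 2177 higher, in place of 6822 and 4140. With it, 5 members in place of 19 were called lower and 1 in place of 3 higher. Without siCtrl replicate 5, siPADI2 replicate 1 or siPADI2 replicate 2, 12 were called lower, and without siCtrl replicate 5 1 was called higher. DESeq2 called 11 lower and 2 higher.

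**Figure D5:**
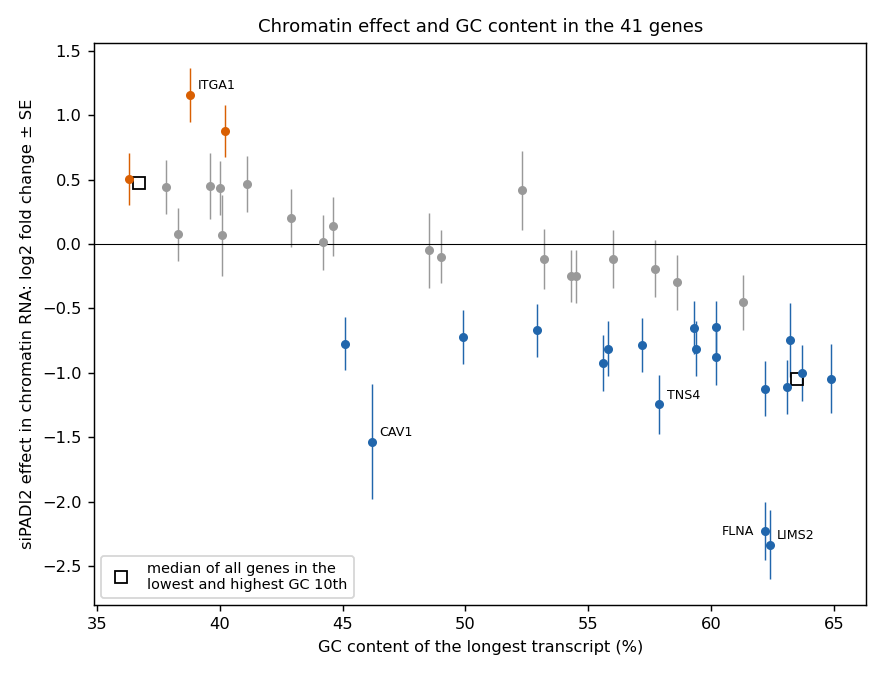
Effect of siPADI2 in chromatin RNA (log2 fold change with standard error) against the GC content of the longest transcript for the 41 members. Blue genes were called lower, orange higher and grey not called, and open squares give the medians of all genes in the lowest (0.47) and the highest GC 10th (−1.05). FLNA (−2.23) and LIMS2 (−2.33) lie lowest, and ITGA1 (1.16) highest.

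FLNA, VCL and ACTN1 were among the 5 that were also lower with GC correction. FLNA had 83.7 and 78.0 CPM in the siCtrl chromatin libraries and 20.9 and 13.5 CPM after siPADI2 (−2.23, standard error 0.225, adjusted p = 5.85e-20, and −1.29, adjusted p = 0.000192 with GC correction). VCL had 85.0 and 72.7 CPM with the control siRNA but 46.1 and 46.1 CPM after siPADI2 (−0.77, adjusted p = 0.00169, and −1.06, adjusted p = 0.000426 with GC correction). ACTN1 changed by −0.72 (adjusted p = 0.00389, and 0.0165 with GC correction), though its call was lost without siCtrl replicate 5 or siPADI2 replicate 1. These 3 linkers were therefore lower in each of the 3 comparisons.

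LIMS2 and CAV1 were the other members lower with GC correction. LIMS2 had 27.6 and 42.3 CPM in the siCtrl chromatin libraries and 6.39 and 7.44 CPM after siPADI2 (−2.33, standard error 0.268, adjusted p = 1.43e-15), and CAV1 had 8.59 and 7.95 CPM against 2.13 and 3.54 CPM (−1.53, adjusted p = 0.00341). CAV1 rests on 6 and 10 counts after siPADI2 and lost its call without siPADI2 replicate 1. Both had under 1 CPM in poly(A) RNA. ITGA1, the collagen receptor subunit with less than 1 CPM in poly(A) RNA, was higher in chromatin RNA under either fit, with 42.6 and 37.5 CPM with the control siRNA but 89.1 and 89.6 CPM after siPADI2 (1.16, standard error 0.207, adjusted p = 7.03e-07, and 0.75, adjusted p = 0.00617 with GC correction).

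The tensins were lower in chromatin RNA by similar amounts, with log2 fold changes of −0.78 for TNS1, −1.12 for TNS2, −0.92 for TNS3 and −1.24 for TNS4. None of the 4 passed with GC correction (−0.07, −0.16, −0.34 and −0.48, adjusted p from 0.104 to 0.846). Leaving out siPADI2 replicate 2 ended the calls of TNS1 and TNS3, and leaving out siCtrl replicate 5 that of TNS1. TNS4 had 34.5 and 41.1 CPM in the siCtrl libraries and 14.9 and 17.0 CPM after siPADI2, the latter from 42 and 48 counts. The fall of TNS4 in chromatin RNA was smaller than in poly(A) RNA by 4.12 on the log2 scale (standard error 0.419, adjusted p = 4.54e-19). Its chromatin level after siPADI2 (3.29 CPM per kb) lay within the range of genes with almost no poly(A) RNA, described below.

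Other members called lower in chromatin RNA by at least 1.5-fold were the docking proteins and kinases BCAR1 (p130Cas, −1.11), PXN (−0.87), PTK2B (−0.81) and SRC (−0.65), the zyxin family genes ZYX (−1.05) and TRIP6 (−0.75), the integrins ITGB4 (−1.001) and ITGA7 (−0.65), and VASP (−0.81) and TLN2 (−0.67). None of these 10 was called with GC correction. Leaving out a single library ended the call of 12 of the 21 members past 1.5-fold (1 or more of siCtrl replicate 1, siCtrl replicate 5, siPADI2 replicate 1 and siPADI2 replicate 2), and the other 9 were TNS2, TNS4, ITGA1, ITGB4, VCL, PXN, BCAR1, FLNA and LIMS2. ITGA2, called higher (0.88), lost its call without siCtrl replicate 5 and with GC correction.

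Chromatin libraries also held reads over exons of genes that had almost no poly(A) RNA. Among 8107 other genes of at least 1000 exonic bases and under 0.05 CPM in siRNA poly(A) RNA (limits chosen after seeing the data), the median was 2.88 CPM per kb after siCtrl and 2.62 after siPADI2, and the 90th percentile 6.31 and 6.14. Of the 41 members, 22 were above that percentile after siCtrl and 16 after siPADI2. TNS4 went from 7.80 CPM per kb, above it, to 3.29, below it. FLNA went from 7.64 to 1.63, below even the median. LIMS2 (4.11 and 0.815), CAV1 (2.03 and 0.696) and ITGA1 (2.16 and 4.81), which are 3 of the 6 members called with GC correction, did not exceed the 90th percentile in either group. The part of such reads in the chromatin effects was not tested.

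The chromatin effect of siPADI2 differed from the poly(A) effect, by the interaction test, for 11 of the 41 members, 1 above 0 (TNS4) and 10 below. Over 44615 genes 8.05% were called, 1.71% above and 6.34% below 0 (8.05% past 1.5-fold), and the median over all genes was −0.16. Only 18720 genes had enough reads for the poly(A) test of siPADI2, but 38 of the 41 members did. The members and this background are therefore unlike sets. Without poly(A) siCtrl replicate 2, 19 members were called, and 5 and 6 without poly(A) siPADI2 replicate 1 or 2. TNS4, ITGB4, ITGB8, TLN2 and TRIP6 kept their calls when any single library was left out. ITGB8 had 52.7 and 66.5 CPM in the siCtrl chromatin libraries and 90.2 and 71.9 CPM after siPADI2, a rise that was not called (0.44, adjusted p = 0.0865), against 2.14 in poly(A) RNA (difference −1.89, adjusted p = 3.13e-05).

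Genes around the members were taken from lists of the same pathway. Of 28 integrin ligands, 21 were tested in poly(A) RNA and 6 rose and 8 fell after siPADI2, with 28.8% higher and 27.9% lower among all genes. The largest changes were VTN (vitronectin, −4.10), LAMA2 (a laminin chain, 2.02) and THBS1 (thrombospondin 1, −1.91). VTN had 14 and 10 counts after siPADI2 and LAMA2 4 and 7 counts after siCtrl, so their low groups alone would not have passed the filter. THBS1, the abundant one among these, went from 233 and 236 CPM to 62.1 and 62.7 CPM, and from 378 and 399 CPM to 163 and 177 CPM in the libraries labelled R1810A (−1.20), where 5 ligands rose and 8 fell. Of 32 other plaque genes tested, 11 rose and 12 fell after siPADI2, led by CSRP1 (−2.16), a LIM protein of the actin cytoskeleton, EFS (1.76), a p130Cas relative, and FLNC (1.66). FLNC had only 7 and 26 counts after siCtrl. CSRP1 fell from 201 and 190 CPM to 41.1 and 46.5 CPM. In the libraries labelled R1810A, 8 of 33 rose and 13 fell, led by CAVIN1 (−1.42), CSRP1 (−1.41) and TGFB1I1 (1.18). Over all genes 22.6% rose and 24.3% fell there, and TGFB1I1 had 13 and 11 counts in the WT libraries.

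Of 29 adhesion signalling genes tested, 13 rose and 10 fell after siPADI2, and 7 rose and 9 fell in the libraries labelled R1810A. Over all genes 28.8% rose and 27.9% fell after siPADI2, and 22.6% rose and 24.3% fell in the libraries labelled R1810A. ARHGEF6, an exchange factor for Rac that binds parvins, fell in both (−1.67 and −2.04), from 18.8 and 19.8 CPM to 5.71 and 6.48 CPM and from 45.5 and 46.7 CPM to 10.87 and 11.47 CPM. Of the 6 other integrin subunits tested, 2 rose and 2 fell after siPADI2, led by ITGA2B (−1.52), ITGAL (−1.50) and ITGA10 (0.89). ITGA2B rests on 24 and 45 counts after siCtrl and 11 and 28 after siPADI2. In the libraries labelled R1810A, the 7 rising signalling genes became 3 without WT replicate 1, and the 5 rising ligands became 3 without WT replicate 2 and 2 without R1810A replicate 2. In chromatin RNA 8 of 12 other integrin subunits, 14 of 28 ligands, 11 of 36 plaque genes and 4 of 30 signalling genes fell, and 0, 2, 2 and 1 rose, where 20.1% of all genes fell and 12.2% rose. With GC correction 2, 8, 3 and 2 of them fell, where 2876 of all 33879 genes did.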

How the data were processed

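Each library has a deposited table of raw fragment counts by gene. Trimmomatic, STAR and featureCounts were used, per the submitters' processing notes, and the featureCounts versions were 1.5.1 for poly(A) and 1.4.6-p2 for chromatin RNA, per the file headers. The authors counted read pairs on GENCODE 19 genes (hg19) with strand option 2, without multi-mapping or multi-overlapping reads, per the file headers, so intronic reads stay out.

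Symbols were given to 51996 of 57820 genes from a table of gene names. All genes were fitted, separately for the 4 libraries of each comparison, with edgeR 4.0.16 (TMM scaling, filterByExpr, robust quasi-likelihood F test) in R 4.3.3, with Benjamini-Hochberg adjustment and a threshold of 0.05. The standard error is the log2 fold change divided by the square root of F. Differences between effects are interaction contrasts in joint fits of 8 libraries. No label states that replicates are separate cultures. The p-values therefore rest on the spread between the 2 libraries of a group, which the fit partly shares across genes. That spread may be only technical. Libraries of a group differed by more than sampling noise (chi-square per degree of freedom from 3.55 to 91.7). A level of 3 counts corresponds to between 0.0219 and 0.072 CPM in poly(A) and between 0.442 and 1.06 CPM in chromatin libraries (counting error only). Exonic length for CPM per kb is that of the count tables. GC content came from the longest GENCODE 29 transcript (52337 genes).

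The 41 genes and the lists were chosen with earlier results of these data known. Named in the text are the tensins, every member called with at least a 1.5-fold change, the 5 members highest per exonic length after siCtrl and, of each other list, at most the 3 genes with the largest called changes. Other members and the luminal, basal and immune markers are named beside a count. Alternatives were DESeq2 1.42.0, total counts as library sizes, no filter, GC correction, a joint fit, a replicate block and leaving out each library. The fits were tested on simulated counts.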

Additional observations from a re-analysis of the deposited data

Results flagged for a closer look

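The effect of siPADI2 in chromatin RNA minus that in poly(A) RNA passed the interaction test (edgeR quasi-likelihood, Benjamini-Hochberg) for 11 members. TNS4 stands at 4.12, since it fell by 5.58 in poly(A) and by 1.24 in chromatin RNA on the log2 scale. Its chromatin level after siPADI2 (3.29 CPM per kb) lay under the 90th percentile of genes with almost no poly(A) RNA (6.14). The part of such reads in this difference was not tested. The other 10 are below 0. ITGB8 (−1.89) rose in poly(A) RNA and was not called in chromatin RNA, and TRIP6 (−1.78) and TLN2 (−1.47) rose in poly(A) and fell in chromatin RNA. The chromatin call of TRIP6 was lost without any of the 4 libraries. That of TLN2 was lost without siPADI2 replicate 1, siPADI2 replicate 2 or siCtrl replicate 5. ITGA9 (−1.64), a subunit with at most 0.345 CPM in poly(A) RNA, lost this call without any of 5 libraries. ITGB4 (−1.60), PTK2B (−1.37) and SRC (−1.18) were higher in poly(A) and lower in chromatin RNA. BCAR1 (−1.35), TNS1 (−1.25) and ITGA7 (−1.17) were not called in poly(A) RNA and were lower in chromatin RNA. None of the chromatin falls named here was called with GC correction, and TRIP6 turned to 0.24. With GC correction, an alternative for this test chosen after seeing the data, TNS1, ITGA7, ITGB4, SRC, BCAR1 and TRIP6 no longer passed. That fit called 13 members in place of 11, so other members passed in it.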

How the results depend on the processing

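Of 80 counts of called members recomputed under an alternative, 66 stayed within 1.5 times the value reported and 3 were larger and 11 smaller. After siPADI2 in poly(A) RNA, leaving out a library gave 8 to 13 members higher, and in the libraries labelled R1810A 8 to 13. In chromatin RNA members higher were 6 with total counts, 1 with GC correction and 1 to 3 without a library, and members lower were 11 with DESeq2, 5 with GC correction and 12 to 18 without a library. Members whose chromatin and poly(A) effects differed were 17 with total counts and 5 to 19 without a library. With GC correction, 13 members differed in this way. In chromatin RNA that correction was also applied, and the log2 fold changes of ITGA7 (0.25), PXN (0.011), SRC (0.20), ILK (0.50), ACTN4 (0.50), VASP (0.034) and TRIP6 (0.24) turned positive. So did those of ITGA3, TLN1, ITGA5, ITGB5 and PARVB, which were not called, and those of ITGA6, ITGAV, ITGB6, PTK2 and PARVA turned negative. The cause was not tested. Values near 0 also turned when a library was left out, among them ILK after siPADI2 in poly(A) RNA (−0.065 to 0.11), and ITGB1 (−0.028 to 0.79) and ILK (−0.35 to 0.083) in chromatin RNA. With total counts as library sizes, 67% of calls were higher after siPADI2 in poly(A) RNA (50.8% as reported), with 19 members higher and 14 lower, and 56.7% in the libraries labelled R1810A (48.3%). Over all genes in chromatin RNA, DESeq2 called 331 higher and 2575 lower (11.4% higher) against 4140 and 6822 as reported (37.8%).

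With the replicate number as a block, the poly(A) comparison of siPADI2 gave 14 members higher and 16 lower, and that of RNAP2 gave 15 and 17, with ACTN4 (adjusted p = 0.00958) among the lower. The labels do not say that equal numbers mark a shared culture, and the correlation of replicate differences was 0.232 and 0.756 over 15480 genes. No paired analysis was possible for chromatin RNA because its groups share a single replicate number. The chromatin depth of 2.72 to 7.04 in units of 1e6 limits what can be detected there.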

Other observations

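Genes of the hemidesmosome, the adhesion complex that anchors ITGB4 to keratins, showed little common direction in poly(A) RNA. Of the 3 of 6 that could be tested, PLEC (plectin, which binds ITGB4) rose after siPADI2, from 541 and 442 CPM to 846 and 773 CPM (log2 fold change 0.72, SE 0.0942, adjusted p = 5.58e-08 by edgeR's quasi-likelihood test), and CD151, the tetraspanin partner of laminin-binding integrins, fell by 0.50 on the log2 scale (adjusted p = 5.65e-06). PLEC rose and CD151 fell in the libraries labelled R1810A as well (0.41 and −0.46). ITGB4 itself rose by 0.38 after siPADI2 and was not called in the libraries labelled R1810A (0.03).

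CCN2, a matricellular integrin ligand, was at most 0.143 CPM in the siRNA poly(A) libraries, while it had 4.88 and 4.71 CPM in the WT libraries and 1.002 and 1.006 CPM in those labelled R1810A (−2.26 with a standard error of 0.129, edgeR adjusted p = 2.15e-08). FN1, the fibronectin gene and ligand of ITGA5, was chosen after its values were seen. It fell from 92.3 and 86.4 CPM to 32.1 and 31.1 CPM after siPADI2 (−1.50, adjusted p = 4.59e-18), and from 181 and 196 CPM to 88.9 and 92.9 CPM in the libraries labelled R1810A (−1.05, adjusted p = 3.57e-08).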
